A study of Mus musculus with 4 samples.

Results

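In whole testes of mice labelled deficient in Ptbp2, 75 genes had low transcript levels that were about equally low in both animals. They were chosen from an expression table of 988 genes, which the authors deposited as differentially expressed genes. Shares of this table given below are therefore shares of genes already listed as changed, and not of all expressed genes. The choice followed a rule on RPKM, a read count corrected for the length of the gene and the depth of the library. The rule asked that the mean of the 2 libraries labelled cKO (conditional knockout) be at most 0.5 times the mean of the 2 wild type (WT) libraries, and that log2 of labelled cKO library 2 over library 1 be at least -0.25. Symbols ending in Rik, or made of Gm and digits, were left out, which removed 19 genes that met both cuts. The 75 genes are 14.7% of the 509 named genes that met the first cut. The other 434 were lower in labelled cKO library 2 than in library 1 by more than the cut. All 75 are protein coding, and they lie on 19 chromosomes.

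The samples were whole testes of 4 male C57BL/6 mice at postnatal day 25, 2 carrying the Ptbp2 conditional knockout and 2 WT, with 1 paired-end ScriptSeq library per mouse. Poly(A)+ RNA was selected, and rRNA depletion is named for the library input. The labels do not name the Cre driver or the cells in which the gene was deleted. Ptbp2 itself had 111 and 98.2 RPKM in labelled cKO libraries 1 and 2, against 65.7 and 66.6 RPKM in WT libraries 1 and 2. A deletion inside the gene need not lower reads from its remaining exons, so this RPKM is no check of the genotype, and every library is named as it was labelled.

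Ptbp2 encodes a polypyrimidine tract binding protein, which binds pyrimidine-rich stretches of pre-mRNA and changes which exons are joined. In the testis it is expressed in germ cells, which at this age pass from meiosis to spermatids, the haploid cells that become sperm. A change of splicing can alter a protein, or can place an early stop codon in the message and send it to nonsense-mediated decay, so that splicing and transcript level of one gene can be linked.

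The median gene of the 75 had 3.98 and 4.10 RPKM in labelled cKO libraries 1 and 2, against 10.3 and 11.4 RPKM in WT libraries 1 and 2. In such bulk samples fewer cells of a type and less RNA per cell cannot be told apart. Set against each gene's WT mean, the median was 38.1% in labelled cKO library 1 and 38.1% in library 2. Both animals thus sat at the same fraction of WT, which is what the rule asks for and no finding. The log2 ratio of labelled cKO library 2 over library 1 ran from -0.22 to 0.71 with a median of -0.05. It lay within 0.25 either way in 65 genes and above 0.25 in 10, so those 10 are not equal between the animals but higher in library 2. They are Zswim2 (0.71), Adh4 (0.58), Skp2 (0.44), Tuba4a (0.42) and Dydc2 (0.41), followed by Gxylt2, Habp4, Scube2, Rpl34 and Wbp2nl.

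**Figure D1:**
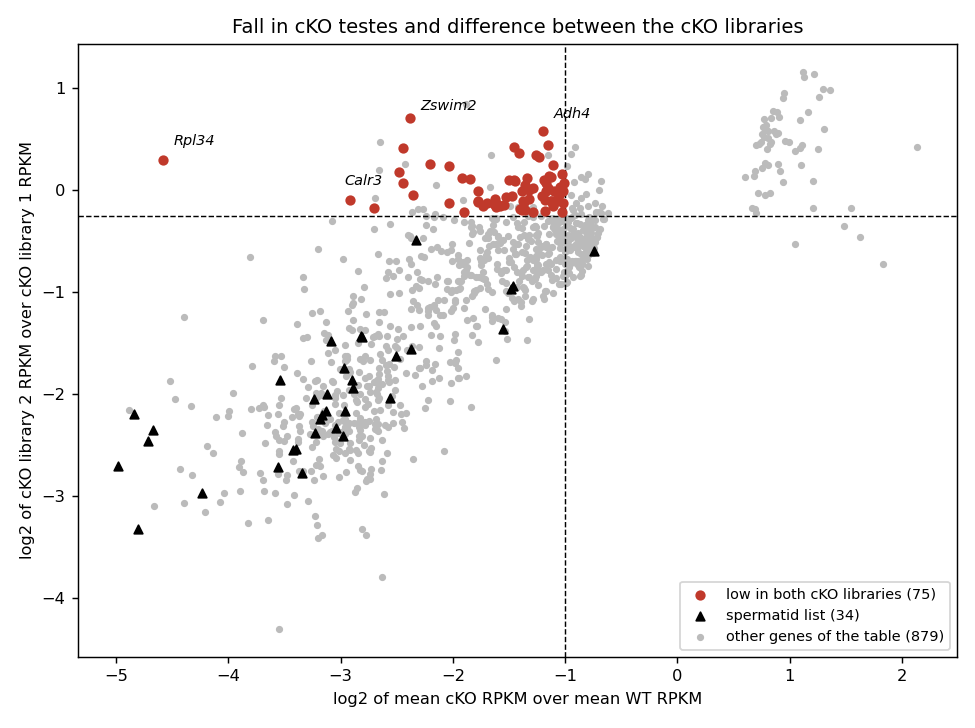
Each point is 1 of 988 genes. The horizontal axis is log2 of mean RPKM in the labelled cKO libraries over mean RPKM in the WT libraries, and the vertical axis is log2 of labelled cKO library 2 over library 1. Dashed lines mark the cuts of the rule. The 75 chosen genes (red) lie in the upper left field, which also holds the 19 Rik and Gm genes left out by name (grey). The 34 genes of a spermatid list (triangles) run from -0.49 down to -3.33 on the vertical axis.

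The lowering of these genes was modest beside the rest of the table. Mean RPKM in the libraries labelled cKO was at most 0.5 times WT for all 75 by the rule, where 79.8% of the whole table met that cut. It was at most 0.25 times WT for 11 of the 75, where 46.3% of the whole table was. The median log2 fold of labelled cKO over WT was -1.36 for the 75 genes, -2.48 for the other 434 and -1.87 for the whole table. Because expression in all 4 libraries chose the genes, these values describe them, and no test of labelled cKO against WT is given. Both libraries labelled cKO lay below both WT libraries for all 75 genes, where 93.6% of the whole table did.

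Near the first cut, Limch1, Dcun1d4 and Sh3kbp1 were the last genes taken, at 49.7%, 49.4% and 49.4% of WT. Rec8, which encodes a cohesin subunit of meiotic chromosomes, Clip1 and Zfp558 were the first left out, at 50.4%, 51.8% and 52.2% of WT. For the ratio between the labelled cKO libraries, Fyb, Ankrd42 and Rftn2 lay just inside the cut at -0.22, -0.21 and -0.21. Pwwp2b, Asb14 and Ica1 lay just outside it at -0.26, -0.26 and -0.27. The cuts therefore pass through a continuous range of genes and do not mark a gap.

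**Figure D2:**
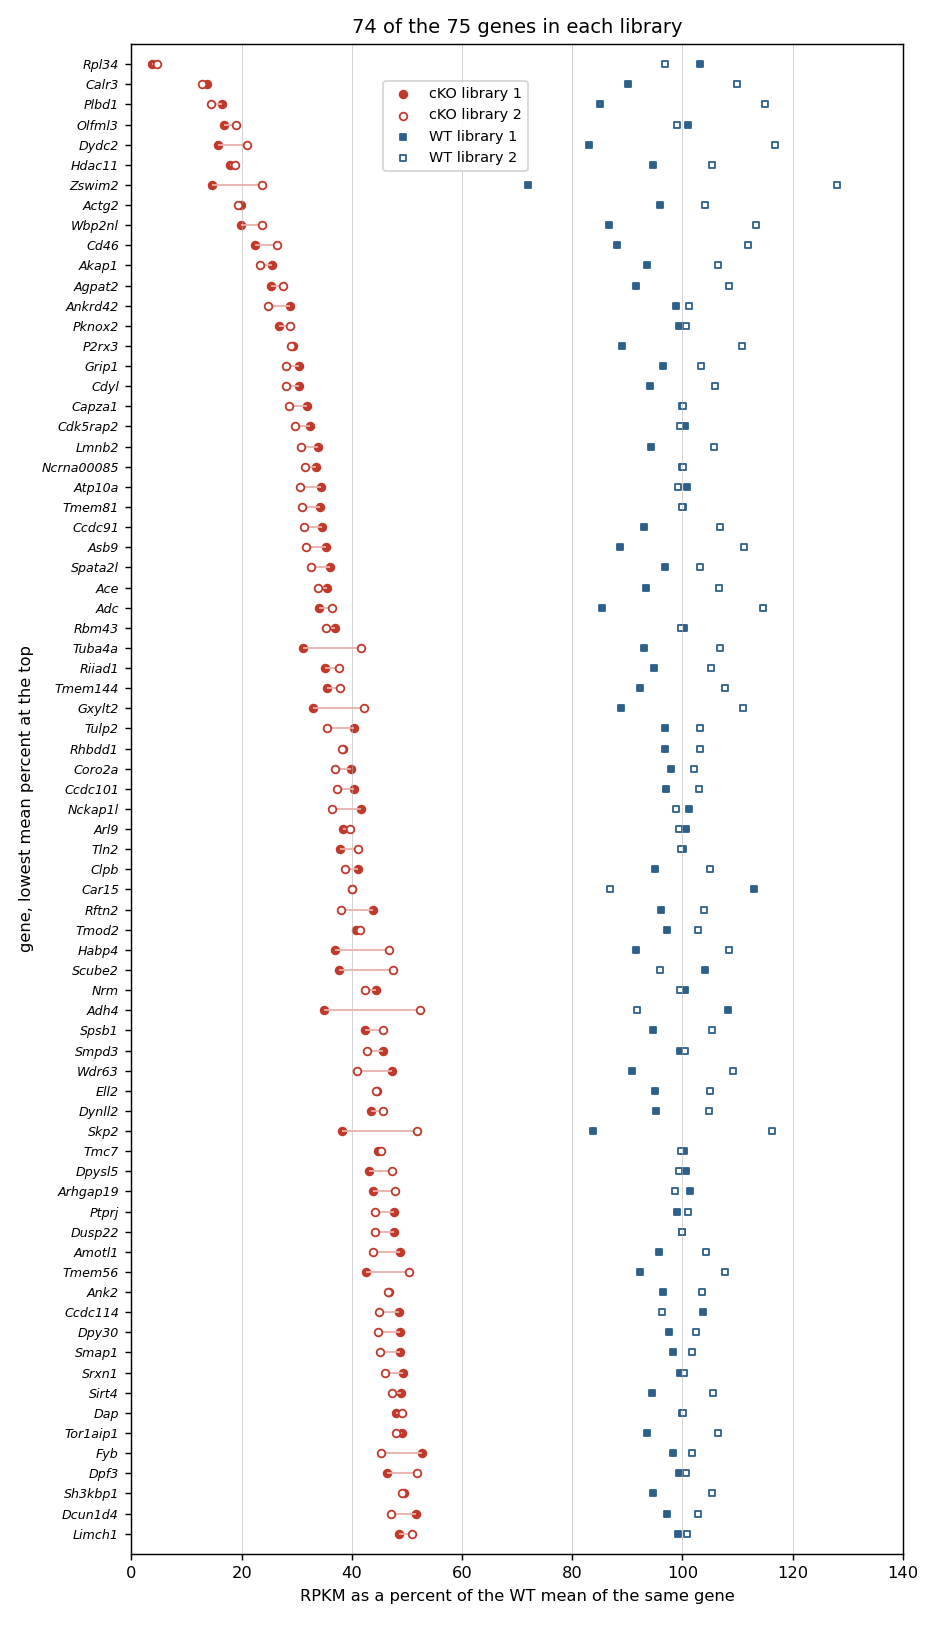
RPKM of 74 of the 75 genes in labelled cKO libraries 1 and 2 (red circles, filled and open) and in WT libraries 1 and 2 (blue squares, filled and open), as a percent of the mean of the WT libraries for that gene. Rpl34 stands alone at 3.75% and 4.60% in labelled cKO libraries 1 and 2. Calr3 follows at 13.7% and 12.8%, and the highest values are 52.8% in labelled cKO library 1 (Fyb) and 52.3% in library 2 (Adh4).

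WT library 2 was above WT library 1 for 57 of the 75 genes (76.0%), where 79.3% of the whole table was, and the median log2 ratio of WT library 2 over library 1 was 0.09. Over the spermatid list of 44 genes, 34 are in the table and none met the rule. Their summed level was 604 and 223 RPKM in labelled cKO libraries 1 and 2, against 2848 and 3597 RPKM in WT libraries 1 and 2, and all 34 were lower in the libraries labelled cKO. Spermatid genes thus moved with the genotype labels beside the 75 genes, and their part in the levels of those genes was not tested. Between the labelled cKO libraries they moved by a median log2 ratio of -2.11, against -0.05 for the 75 genes, a difference that the rule itself set.

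RPKM is relative to all reads of its own library, so equality between the animals depends on the scale. The 63 genes listed as higher in the libraries labelled cKO had a median log2 ratio of 0.45 for labelled cKO library 2 over library 1, and 51 of them were higher in library 2. With library 2 divided by that ratio, a scaling chosen after the data were seen, 14 genes met the rule, 12 of them among the 75. Those 12 include Rpl34, Zswim2, Wbp2nl, Cd46, Skp2 and Tuba4a, and 2 further genes, Rec8 and Acot9, came in. The other 63 of the 75 are then lower in library 2 than in library 1 beyond the cut. The rule has no upper cut, and 10 of the 12 are those higher in library 2 on the deposited scale. Only Cd46 and Tmem56, 2 of the 75, had a ratio within 0.25 either way on both scales, so that the label of genes equally low in both animals depends on the scale. The 63 genes were themselves listed as changed with the genotype label. Their ratio between the labelled cKO libraries therefore need not be a difference of library scale, and which scale holds was not tested.

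Splicing was not used by the rule. Percent spliced in (PSI) is the share of transcripts that hold an exon or intron, and ΔPSI its difference between genotypes. A single ΔPSI in percentage points is listed for each of 1223 events in 915 genes in the authors' deposited table. Its header does not name the genotype that was subtracted, and without a value per library no replicate error can be given. Of the 75 genes, 10 have a listed event (13.3%, and 1.09% of the 915 spliced genes), where 8.91% of the whole expression table and 8.06% of the other 434 genes do. The share depends on the cut and the scale. At a cut of 0 between the labelled cKO libraries 1 of 31 genes (3.23%) has an event. With library 2 scaled as above 1 of 14 (7.14%) has one, and both shares are under the 8.91% of the table. At a cut of -0.5 the share is 21 of 134 genes (15.7%), above that of the table. The 10 genes hold 11 events: 5 cassette exons, 4 retained introns, and 1 alternative splice site each at a 3′ and a 5′ end. Absolute ΔPSI in the authors' deposited table shows that 7 of these 11 events are of 20 points or more, where 21.0% of all listed events are and where 17 of 44 events of the other 434 genes are. These shares come from few events and were not tested.

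**Figure D3:**
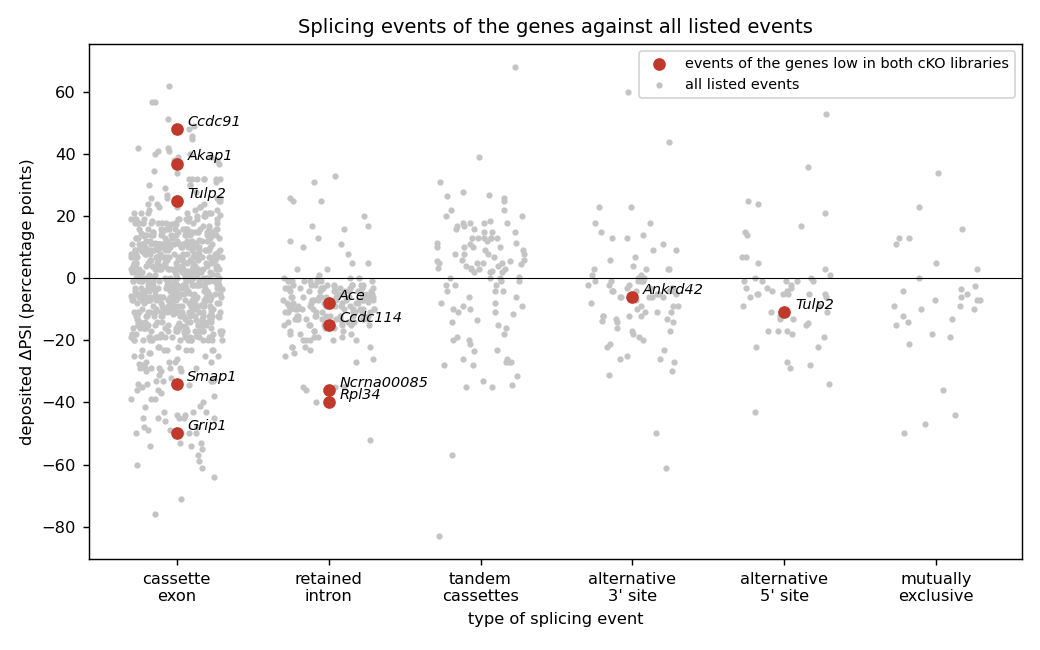
ΔPSI from the authors' deposited table in percentage points (vertical axis) of all 1223 listed events (grey) by type of event, with the 11 events of the 75 genes in red. Ccdc91 and Grip1 lie at 48 and -50 among the cassette exons, and Ncrna00085 and Rpl34 at -36 and -40 are among the most negative retained introns.

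Grip1 had the largest absolute event. It encodes a scaffold with several PDZ domains that carries receptors and motor proteins in neurons. The 195-nt cassette exon (mm9 chromosome 10, 119475655 to 119475849, plus strand) has a ΔPSI of -50 in the authors' deposited table, and 16 of 741 cassettes are at least as negative. The length is that of 1 annotated exon, which is wholly coding in 11 transcripts, and it is divisible by 3, so that skipping it keeps the reading frame. Grip1 had 4.89 and 4.53 RPKM in labelled cKO libraries 1 and 2, against 15.6 and 16.7 RPKM in WT libraries 1 and 2.

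Smap1 encodes a GTPase-activating protein for Arf6 that acts in clathrin-dependent endocytosis. Its 81-nt cassette exon (mm9 chromosome 1, 23878277 to 23878357, minus strand) has a ΔPSI of -34 in the authors' deposited table. Smap1 has 2 annotated exons of that length, of which 1 is coding. Smap1 had 18.6 and 17.2 RPKM in labelled cKO libraries 1 and 2, against 37.6 and 38.9 RPKM in WT libraries 1 and 2.

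Tulp2, a tubby-like gene expressed in testis, has an event of each sign. The 139-nt cassette exon (mm9 chromosome 7, 52770788 to 52770926, plus strand) has a ΔPSI of 25 and the alternative 5′ splice site (52773956 to 52774276) one of -11 in the authors' deposited table. The length of 139 nt is not divisible by 3, so that skipping the exon shifts the frame. Only Rpl34 had a higher mean WT level among the 75 genes. Tulp2 had 55.9 and 49.1 RPKM in labelled cKO libraries 1 and 2, against 134 and 143 RPKM in WT libraries 1 and 2.

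The coding cassettes of these 3 genes are shown with the annotated sequence, because inclusion or skipping of the cassette is what ΔPSI counts. Each was matched by gene and length alone, and for Smap1 the coding 1 of 2 exons of that length was taken. That the printed stretch is the listed event is therefore assumed. Capitals mark the cassette exon, and the 20 bases of lower case on either side are coding bases of the neighbouring exons. They are read from the GENCODE M21 transcripts, where the exon of that gene with the event's length was taken, and the positions of the capitals in the GRCm38 build are chr10:120038599-120038793 on the plus strand for Grip1, chr1:23866217-23866297 on the minus strand for Smap1 and chr7:45515418-45515556 on the plus strand for Tulp2.
Grip1: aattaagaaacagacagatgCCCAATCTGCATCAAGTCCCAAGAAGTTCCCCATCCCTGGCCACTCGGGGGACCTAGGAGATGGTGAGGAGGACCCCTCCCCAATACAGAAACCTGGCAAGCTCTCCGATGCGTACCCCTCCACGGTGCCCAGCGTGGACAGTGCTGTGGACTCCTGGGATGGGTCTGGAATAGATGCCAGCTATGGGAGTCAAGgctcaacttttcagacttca
Smap1: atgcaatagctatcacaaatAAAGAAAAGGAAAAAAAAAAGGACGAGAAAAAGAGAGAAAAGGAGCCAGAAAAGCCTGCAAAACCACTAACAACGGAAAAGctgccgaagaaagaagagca
Tulp2: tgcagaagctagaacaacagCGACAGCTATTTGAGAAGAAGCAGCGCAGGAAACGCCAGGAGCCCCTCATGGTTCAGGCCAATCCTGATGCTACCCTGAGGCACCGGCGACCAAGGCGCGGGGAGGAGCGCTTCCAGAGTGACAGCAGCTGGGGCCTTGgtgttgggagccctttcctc
Pyrimidines make up 48.7% of the Grip1 exon, 16.05% of the Smap1 exon and 42.4% of the Tulp2 exon. The Smap1 exon is thus mostly adenine and guanine.

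The other cassette exons, of Akap1 and Ccdc91, have positive ΔPSI in the authors' deposited table and lie in no annotated protein-coding transcript. Akap1 encodes an anchor that holds protein kinase A at the outer mitochondrial membrane. Its 107-nt exon (mm9 chromosome 11, 88704904 to 88705010, minus strand) has a ΔPSI of 37 in the authors' deposited table, and both annotated transcripts with an exon of that length are classed as subject to nonsense-mediated decay. Akap1 had 6.47 and 5.92 RPKM in labelled cKO libraries 1 and 2, against 23.7 and 27.0 RPKM in WT libraries 1 and 2.

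Ccdc91 encodes a partner of the GGA adaptors, which sort cargo at the Golgi. Its 88-nt exon (mm9 chromosome 6, 147481798 to 147481885, plus strand) has a ΔPSI of 48 in the authors' deposited table, a value that 7 of 741 cassettes reach. Of the 2 annotated transcripts with an exon of that length, 1 is classed as subject to nonsense-mediated decay and 1 as a processed transcript without a reading frame. Ccdc91 had 13.6 and 12.3 RPKM in labelled cKO libraries 1 and 2, against 36.6 and 42.1 RPKM in WT libraries 1 and 2. Like the Tulp2 cassette, both exons have lengths not divisible by 3.

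Over all listed cassettes with an annotated exon of their length, 17.0% (120 of 706) are in no protein-coding transcript, and 2 of the 5 cassettes here are. A length divisible by 3 was found for 2 of the 5, Grip1 and Smap1, where 55.7% of all listed cassettes have one. In the authors' deposited table both have negative ΔPSI, while the 3 cassettes of a length not divisible by 3 have positive ΔPSI. With 5 exons this order is a description only.

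Rpl34, a protein of the large ribosomal subunit, was the lowest of the 75 genes. Among 27 listed ribosomal protein genes, it is the only 1 in the table. It had 6.12 and 7.5 RPKM in labelled cKO libraries 1 and 2, against 168 and 158 RPKM in WT libraries 1 and 2, 23.9-fold lower on the means. Its event is a retained intron (mm9 chromosome 3, 130431969 to 130432220, minus strand) with a ΔPSI of -40 in the authors' deposited table, which 2 of 197 retained introns reach. The 252-nt span equals an annotated exon that covers the exon with the start codon, the next exon and the 78-nt intron between them. By this match of length, that intron (GRCm38 chr3:130729151-130729228, minus strand) was taken as the stretch kept or removed. It is printed in capitals between 20 coding bases of each neighbouring exon, from the same transcripts.
Rpl34: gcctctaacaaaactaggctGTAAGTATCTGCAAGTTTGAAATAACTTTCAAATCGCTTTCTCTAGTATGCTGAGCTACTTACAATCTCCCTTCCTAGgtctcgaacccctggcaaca
The intron is 59.0% pyrimidines. Ribosomal protein genes have many processed pseudogenes, so its level is uncertain where reads are shared with such copies. The authors' counting of those reads is not stated.

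Ncrna00085, an older symbol of Spaca6, has the other large retained intron. Spaca6 encodes a sperm membrane protein needed for fusion with the egg. The event (mm9 chromosome 17, 17975051 to 17975473, plus strand) has a ΔPSI of -36 in the authors' deposited table, which 3 of 197 retained introns reach. Expression of Ncrna00085 was 5.16 and 4.85 RPKM in labelled cKO libraries 1 and 2, against 15.4 and 15.4 RPKM in WT libraries 1 and 2.

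Smaller events were listed for 3 further genes. Ccdc114, of the docking complex for outer dynein arms of cilia, and Ace, the angiotensin-converting enzyme that has a germ cell form, have retained introns with ΔPSI of -15 and -8 in the authors' deposited table. Ankrd42 has an alternative 3′ splice site with a ΔPSI of -6 in the authors' deposited table, and the 1 annotated exon of its length is in a transcript classed as subject to nonsense-mediated decay. Ankrd42 was among the abundant genes, with 22.5 and 19.5 RPKM in labelled cKO libraries 1 and 2, against 77.7 and 79.5 RPKM in WT libraries 1 and 2.

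In the authors' deposited table all 4 retained introns of these genes have negative ΔPSI. This sign is usual for the type, since 102 of the 197 listed retained introns are at -8 or lower. With these 4 introns, 8 of the 11 events are negative, where 59.4% of all listed events of every type are. Of the 10 events with an annotated exon of their length, 6 are in no protein-coding transcript, where 27.3% of all listed events with such an exon are (272 of 997). The 3 retained introns among them weigh on this share, since 77.9% of the listed retained introns with such an exon (109 of 140) are in no protein-coding transcript. Whether these events bear on the levels of the genes was not tested, and ΔPSI in whole testes reads the isoforms of all cell types together.

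**Figure D4:**
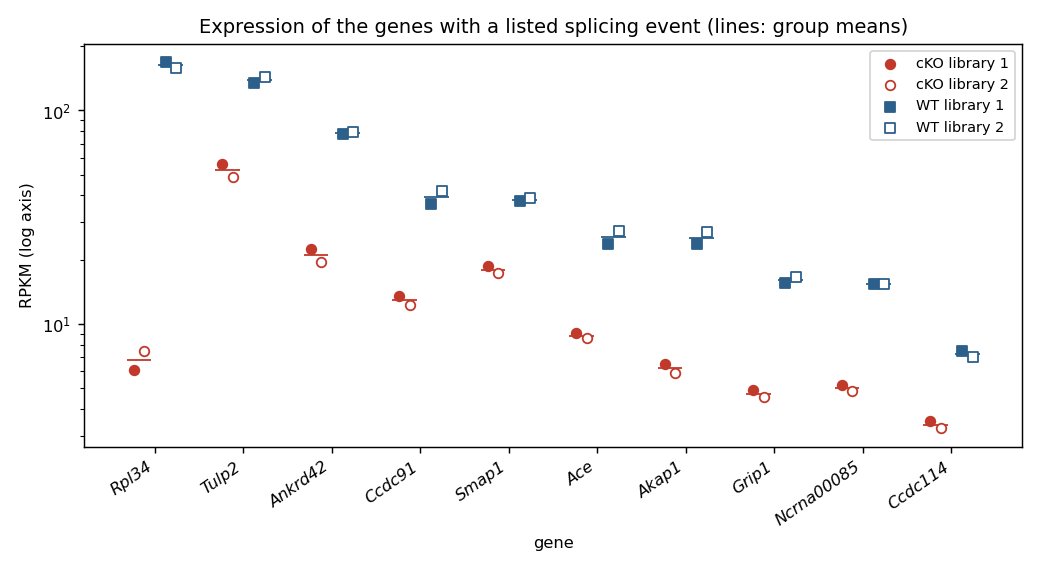
RPKM on a log axis of the 10 genes with a listed event in labelled cKO libraries 1 and 2 (red circles) and WT libraries 1 and 2 (blue squares), with a line at each group's mean. The labelled cKO libraries lie together below the WT libraries in each gene, and the distance is widest for Rpl34, with 6.12 and 7.5 RPKM in labelled cKO libraries 1 and 2 against 168 and 158 RPKM in WT libraries 1 and 2.

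Genes with known work in germ cells and sperm include Calr3, the lowest fraction of WT after Rpl34. The groups by role that follow were set after the values were seen, from textbook knowledge, and place 57 of the 75 genes. Calr3, a testis chaperone of the endoplasmic reticulum that folds sperm surface proteins, averaged 2.79 ± 0.127 RPKM in the libraries labelled cKO and 21.05 ± 2.96 RPKM in WT (SD, n = 2 each). Zswim2, a ubiquitin ligase of the testis, had 6.99 and 11.4 RPKM in labelled cKO libraries 1 and 2, against 34.6 and 61.7 RPKM in WT libraries 1 and 2. It had the largest log2 ratio between the labelled cKO libraries, 0.71, and its WT libraries differed in the same direction by 0.83.

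Wbp2nl, a protein of the postacrosomal sheath of sperm, had 2.20 and 2.63 RPKM in labelled cKO libraries 1 and 2, against 9.62 and 12.6 RPKM in WT libraries 1 and 2. Cd46, a complement regulator that in mice is largely confined to the acrosome, had 1.40 and 1.65 RPKM in labelled cKO libraries 1 and 2, against 5.51 and 7.0 RPKM in WT libraries 1 and 2. Both were slightly higher in labelled cKO library 2. Ace averaged 8.83 ± 0.283 RPKM in the libraries labelled cKO and 25.4 ± 2.40 RPKM in WT (SD, n = 2 each). With Ncrna00085 and Tulp2, the 7 genes of this group had log2 folds from -2.92 to -1.40.

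Chromatin and transcription genes number 8, with log2 folds from -2.44 to -1.02. Hdac11, a histone deacetylase, had 2.17 and 2.27 RPKM in labelled cKO libraries 1 and 2, against 11.4 and 12.7 RPKM in WT libraries 1 and 2, the lowest fraction of WT in this group. Ccdc101, a subunit of the SAGA complex that reads methylated histone H3, averaged 26.3 ± 1.499 RPKM in the libraries labelled cKO and 67.6 ± 2.80 RPKM in WT (SD, n = 2 each). Dpy30, a core subunit of histone H3 lysine methyltransferase complexes, averaged 26.5 ± 1.60 RPKM in the libraries labelled cKO and 56.7 ± 1.99 RPKM in WT (SD, n = 2 each). Cdyl, a chromodomain protein that acts on histone crotonylation in spermatids, had a log2 fold of -1.77. Pknox2 (a homeobox gene, log2 fold -1.85), Ell2 (an elongation factor, -1.17) and Dpf3 (a BAF complex subunit, -1.02) are further genes of the group.

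The nuclear envelope is represented by 3 genes. Lmnb2, which encodes lamin B2 and a germ cell form of it, had 5.02 and 4.57 RPKM in labelled cKO libraries 1 and 2, against 14.01 and 15.7 RPKM in WT libraries 1 and 2. Nrm, an inner nuclear membrane protein, and Tor1aip1, the activator of torsin ATPases there, had log2 folds of -1.20 and -1.04. All 3 had a log2 ratio between the labelled cKO libraries from -0.14 to -0.03.

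Actin and adhesion genes form the largest group, with 11 members. Actg2, the gamma actin of smooth muscle, had 6.77 and 6.56 RPKM in labelled cKO libraries 1 and 2, against 32.7 and 35.4 RPKM in WT libraries 1 and 2. It is the only 1 of 15 genes in a list for peritubular myoid and smooth muscle cells that is in the table, and reads shared with other actin genes may affect its level. Capza1, an alpha subunit of the capping protein that closes growing actin filament ends, averaged 23.6 ± 1.81 RPKM in the libraries labelled cKO and 78.3 ± 0.148 RPKM in WT (SD, n = 2 each). Its log2 ratio between the labelled cKO libraries was -0.16. Its germ cell paralog Capza3 is not among the 75 and had 6.56 and 1.25 RPKM in labelled cKO libraries 1 and 2, against 35.6 and 39.7 RPKM in WT libraries 1 and 2, a ratio of -2.39. Capza1 was taken by this ratio, and Capza3 was chosen after its values were seen. The contrast of the paralogs in this ratio was therefore set by the choice and is no finding.

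Tln2, a talin that links integrins to actin, had 4.32 and 4.68 RPKM in labelled cKO libraries 1 and 2, against 11.4 and 11.4 RPKM in WT libraries 1 and 2. Arhgap19, a GTPase-activating protein for RhoA, averaged 21.5 ± 1.32 RPKM in the libraries labelled cKO and 46.9 ± 0.905 RPKM in WT (SD, n = 2 each). Coro2a (a coronin, log2 fold -1.38), Nckap1l (of the WAVE complex in blood cells, -1.36), Tmod2 (a tropomodulin, -1.28), Amotl1 (an angiomotin at cell junctions, -1.11), Ank2 (ankyrin-B, -1.10), Fyb (an adaptor of immune cells, -1.03) and Limch1 (an activator of nonmuscle myosin, -1.01) complete the group. Of a list of 41 known actin genes 6 are in the table, 5 of them lower and 1 higher in the libraries labelled cKO. Of these 6 genes 3 are among the 75. Of a list of 29 adhesion genes 4 are in the table, 3 of them lower and 1 higher, and 2 of the 4 are among the 75. The 75 genes are 7.59% of the table. These counts come from few genes and were not tested.

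The microtubule, centrosome and cilium group has 6 genes. Wdr63, a dynein intermediate chain of motile cilia, had 47.6 and 41.2 RPKM in labelled cKO libraries 1 and 2, against 91.2 and 110 RPKM in WT libraries 1 and 2. Cdk5rap2, a centrosome protein that recruits the gamma-tubulin complex, had 24.03 and 22.01 RPKM in labelled cKO libraries 1 and 2, against 74.7 and 74.1 RPKM in WT libraries 1 and 2. The WT libraries agree closely for the second gene and differ for the first. Tuba4a, an alpha tubulin whose reads may be shared with other tubulin genes, had a log2 fold of -1.46 and a ratio of 0.42 between the labelled cKO libraries. Dynll2 (a dynein light chain, -1.17), Dpysl5 (a microtubule-associated protein of neurons, -1.15) and Ccdc114 (-1.10) had smaller log2 folds.

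Cargo and membrane traffic genes besides Grip1, Ccdc91 and Smap1 comprise Sh3kbp1, an adaptor in receptor endocytosis with a log2 fold of -1.02. Of a list of 33 traffic genes 3 are in the table, 2 lower and 1 higher in the libraries labelled cKO, and Sh3kbp1 is the 1 that met the rule. Ubiquitin ligase genes are Asb9 (-1.58), Spsb1 (-1.18) and Skp2 (-1.15), which encode substrate receptors, and Dcun1d4 (-1.02), which promotes the activation of cullins, with the log2 fold of each in brackets. Skp2 had 3.98 and 5.40 RPKM in labelled cKO libraries 1 and 2, against 8.74 and 12.1 RPKM in WT libraries 1 and 2, so library 2 was the higher under both labels. Mitochondrial genes besides Akap1 are Clpb, a disaggregase, and Sirt4, a sirtuin, at log2 folds of -1.33 and -1.06.

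Enzymes of lipids and small molecules number 7, with log2 folds from -2.70 to -1.07. Plbd1, related to phospholipase B, had 1.11 and 0.98 RPKM in labelled cKO libraries 1 and 2, against 5.77 and 7.79 RPKM in WT libraries 1 and 2. Agpat2, which makes phosphatidic acid, had 1.91 and 2.07 RPKM in labelled cKO libraries 1 and 2, against 6.90 and 8.18 RPKM in WT libraries 1 and 2. Adh4, an alcohol dehydrogenase that oxidises retinol, had 3.81 and 5.71 RPKM in labelled cKO libraries 1 and 2, against 11.8 and 10.02 RPKM in WT libraries 1 and 2. Its log2 ratio of 0.58 between the labelled cKO libraries is the second highest after that of Zswim2. The others are Smpd3 (a neutral sphingomyelinase), Car15 (a carbonic anhydrase), Gxylt2 (a xylosyltransferase of Notch) and Srxn1 (sulfiredoxin).

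Channels, transporters and receptors comprise P2rx3 (an ATP-gated channel), Atp10a (a phospholipid flippase), Tmc7 and Ptprj (a receptor tyrosine phosphatase), with log2 folds from -1.78 to -1.12. P2rx3 had 1.17 and 1.16 RPKM in labelled cKO libraries 1 and 2, against 3.56 and 4.43 RPKM in WT libraries 1 and 2. Apart from Rpl34, the remaining 17 genes had log2 folds from -2.48 to -1.04. Olfml3, a secreted olfactomedin protein, averaged 1.81 ± 0.156 RPKM in the libraries labelled cKO and 10.1 ± 0.141 RPKM in WT (SD, n = 2 each). Dydc2 averaged 1.48 ± 0.297 RPKM in the libraries labelled cKO and 8.06 ± 1.92 RPKM in WT (SD, n = 2 each). Riiad1, with a domain like that of the protein kinase A regulatory subunit, averaged 41.0 ± 1.94 RPKM in the libraries labelled cKO and 112 ± 8.17 RPKM in WT (SD, n = 2 each). The rest are Ankrd42, Tmem81, Spata2l, Adc, Rbm43, Tmem144, Rhbdd1, Arl9, Rftn2, Habp4, Scube2, Dusp22, Tmem56 and Dap.

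Many of the values are low. The mean of the libraries labelled cKO was under 5 RPKM for 46 of the 75 genes and under 1.5 RPKM for 11 (14.7%), where 13.4% of the other 434 genes were under 1.5 RPKM. The lowest group means in the whole table are 1.01 RPKM for the libraries labelled cKO and 1.05 RPKM for WT. A minimum set by the authors is not stated.

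The promoters of the 75 genes were compared with RefSeq promoter windows of 250 bases before to 50 bases after the start site (GRCm38.p6), which cover 62 of the 75 genes, 797 of the 988 genes of the table and 27025 genes in all. CpG dinucleotides, which are frequent at the promoters of broadly expressed genes, were scored as observed over expected frequency and averaged over a gene's windows. The median was 0.645 for the 62 genes, against 0.360 for the genes of the expression table and 0.390 for all genes of the promoter table. A value over 0.6 was found for 32 of the 62 genes (51.6%), against 29.2% of the expression table and 35.5% of all genes. The matched genes low in both animals thus had a higher median and share than the table they were drawn from, as a description without a test. Rik and Gm symbols were left out of the 75 but kept in the table, where 683 of the 988 genes are named otherwise. The name filter and the cuts of the rule cannot be told apart in this difference. For the other 434 genes windows matched 339 (78.1%). This was under the 80% set as the least for a comparison, so none was made with these genes.

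The cAMP response element TGACGTCA, the site of the spermatid activator CREM among other factors, reads the same on both strands. It is in the windows of 5 of the 62 genes (8.06%), against 4.14% of the expression table and 2.03% of all genes. The 62 genes have 1.63 windows per gene, against 1.31 in the expression table and 1.22 over all genes, so a match in any window has more room in them, and the difference was not tested. Rik and Gm symbols are again in the expression table but not in the 62. These 5 matches are printed with 16 bases on either side, the element in capitals, in the direction of the gene and before its start site. They lie at chr13:75707270-75707309 (plus strand, Ell2), chr13:64161735-64161774 (plus strand, Habp4), chr7:118584712-118584751 (minus strand, Tmc7), chr3:79842730-79842769 (minus strand, Tmem144) and chr3:146108177-146108216 (minus strand, Wdr63) of GRCm38.p6.
Ell2: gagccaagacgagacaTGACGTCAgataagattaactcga
Habp4: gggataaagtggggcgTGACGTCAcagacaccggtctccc
Tmc7: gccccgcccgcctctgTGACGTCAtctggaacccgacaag
Tmem144: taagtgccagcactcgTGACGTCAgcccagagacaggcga
Wdr63: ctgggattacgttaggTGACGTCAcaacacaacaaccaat
A match of letters is no evidence of binding. The 5 genes differ in level, with Wdr63 at 44.4 ± 4.54 RPKM in the libraries labelled cKO against 100.5 ± 13.1 RPKM in WT, and Ell2 at 4.24 ± 0.0141 RPKM in the libraries labelled cKO against 9.54 ± 0.672 RPKM in WT (SD, n = 2 each). Tmc7 averaged 13.4 ± 0.134 RPKM in the libraries labelled cKO and 29.8 ± 0.0919 RPKM in WT (SD, n = 2 each). Habp4, which binds hyaluronan and RNA, averaged 6.05 ± 1.01 RPKM in the libraries labelled cKO and 14.5 ± 1.71 RPKM in WT, and Tmem144 6.47 ± 0.290 RPKM in the libraries labelled cKO and 17.7 ± 1.91 RPKM in WT (SD, n = 2 each).

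Markers of other testis cells were few. Of 16 macrophage genes 3 are in the table, with a summed level of 54.7 and 69.0 RPKM in labelled cKO libraries 1 and 2, against 29.0 and 29.9 RPKM in WT libraries 1 and 2. All 3 were higher in the libraries labelled cKO. Their log2 ratios of labelled cKO library 2 over library 1 ran from -0.35 to 0.47 with a median of -0.18. The higher sum in library 2 is therefore not shared by all 3. Of 13 Leydig and 20 Sertoli cell genes 1 each is in the table, and both were higher in the libraries labelled cKO. Of 20 spermatocyte genes 3 are in the table and were lower, and 1 of them, Pgk2, is on the spermatid list too. Among 45 collagen and matrix genes, 8 are in the table, and all 8 were higher in the libraries labelled cKO. The rule takes only lower genes, so it left out the macrophage, Leydig, Sertoli and collagen genes in advance. The 3 spermatocyte genes had log2 ratios between the labelled cKO libraries from -0.94 to -0.28, outside its second cut. That none of these genes is among the 75 was thus set by the rule. No gene of the spermatogonia, endothelial, erythroid or epididymis lists is in the table. A gene absent from the table was not listed as differentially expressed, which does not show that it was not expressed.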

How the data were processed

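One RNA library per mouse came from the testes of 2 animals labelled cKO and 2 labelled WT, at postnatal day 25. The authors deposited RPKM per library and the mean RPKM of each genotype, with a log2 fold change and an adjusted p-value, per the file headers. The p-value was not used, and the log2 fold change equals that of the means within 0.0272. For splicing the authors deposited 1 score per event, ΔPSI in percentage points, per the file headers. For aligner, counter, splicing caller and filters, the tool was not given in the sources used here. A second splicing table, with events of at least 20 points from the first, was not used. Neither counts nor depths accompany the values, so depth is unknown and no counting interval is given. Replicates are separate mice per the labels.

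The submitters' processing notes name mm9 and mm10. Deposited cassettes in annotated genes number 736. Their length (end minus start) equals that of a GENCODE M21 exon in 706, but only 18 share its GRCm38 coordinates, so positions were read as mm9. They are given 1-based without conversion. The 308 splicing rows without a gene name took the name above them. An event was assigned to annotated exons by gene and length alone. All 75 genes matched the RefSeq gene table, 4 of them through a synonym.

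Members and lists were chosen with earlier results of these data known. No test was made, because expression in all 4 libraries chose the genes and 1 library a side or 1 value per event allows none for the rest. Folds are log2 of the ratio of means without a pseudocount. The rule was tested on simulated data. The values of 1 of the 75 genes are not reported here, though it is counted. Genes named with values are those with a splicing event, those in a gene list, the 15 with the lowest ratio to WT, the 10 most abundant in WT, the 3 nearest each cut on either side and the 5 with the highest ratio between the labelled cKO libraries. Other members given with values (Habp4, Tmc7, Tmem144, Cdyl, Ell2, Dpf3, Lmnb2, Nrm, Tor1aip1, Arhgap19, Coro2a, Nckap1l, Tmod2, Dynll2, Dpysl5, Asb9, Spsb1, Clpb and Sirt4), and Capza3, Ptbp2 and Acot9, were chosen after their values were seen. Python 3.11.15 was used with numpy 2.4.6 and pandas 2.3.3, and matplotlib 3.10.9 for figures.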

Additional observations from a re-analysis of the deposited data

How the results depend on the processing

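The number of genes depends on the cut between the labelled cKO libraries. It was 75 with 10 spliced genes as reported, 31 with 1 spliced gene at a cut of 0, and 134 with 21 at a cut of -0.5. At most 0.25 times WT left 11 genes with 2 spliced genes and a median log2 fold of -2.44. With labelled cKO library 2 scaled by the genes listed as higher, a setting chosen after the data were seen, 14 genes were left with 1 spliced gene and a median log2 fold of -1.57. Leaving out 1 library from the fold gave 68 to 78 genes, 10 to 11 spliced genes and a median from -1.40 to -1.35. With RPKM + 1, 67 genes met the rule, of which 51 are among the 75. A cut on both sides (65 genes), RPKM + 0.1, a minimum mean of 5 RPKM (50 genes), geometric means, Rik and Gm symbols kept (94 genes), events of 20 points or more (7 spliced genes) and names matched through synonyms kept counts within 1.5 times and the median within the spread between libraries. Of the 45 genes named by rule, the log2 fold moved by less than the spread between libraries for 21 with RPKM + 1, which makes folds of genes with low RPKM smaller. It did so for all 45 without any 1 library. With 2 libraries a group, leaving 1 out moves a mean by only part of their difference, so that result was fixed in advance. Some folds then missed the cut of 0.5 times WT. Among them were Adh4 (log2 fold -0.93 without labelled cKO library 1) and Skp2 (-0.90 without WT library 2). No paired analysis was possible because the results come from no test. With 2 mice a group, genes of low RPKM and ΔPSI without a replicate error limit what can be said of any single gene.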
